A study of Mus musculus with 6 samples.

Results

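The genes described here are 46 that encode lysosomal enzymes, their activators and carriers, and proteins of the lysosomal membrane, taken by symbol from a named list out of 55951 genes in the deposited expression table. Each symbol matched 1 row, all 46 passed the filter on low values (a mean of at least 1 FPKM over the 6 libraries), and all are annotated as protein-coding. The samples are labelled as CD8+ effector-memory T cells of the spleen, sorted as CD3+ CD8+ CD4- CD44+ CD62L- cells from C57BL/6 mice of the genotype S100A4-EGFP (written S100A4WT-EGFP in the growth protocol) with asthma induced by ovalbumin. The S100A4-negative group was EGFP- and the S100A4-positive group EGFP+, with 3 libraries each, and the asthma model, strain and reporter are common to both. The labels give no age or sex, and do not say whether the 3 samples of a group came from separate animals or from pools, so p-values measure only the spread between these samples, which may be technical. EGFP stands for S100A4 expression only as far as the reporter follows it. Marker genes went against the labelled cell type in the S100A4-positive libraries, where T cell transcripts were low and macrophage transcripts high: Cd3e, Cd8a and Cd8b1 averaged 23.5 ± 6.20, 22.6 ± 9.17 and 14.9 ± 5.06 FPKM there (SD, n = 3), and Csf1r, which encodes the CSF1 receptor of macrophages, 1039.9 ± 203.9. In the S100A4-negative libraries the same genes averaged 146.1 ± 19.1, 137.2 ± 51.1, 141.5 ± 46.6 and 22.6 ± 9.88 FPKM. Markers of neutrophils, plasma cells and B cells were also well detected in the S100A4-negative libraries, as given below. Levels are FPKM, fragment counts scaled to transcript length and sequencing depth, so that levels can be set side by side between genes. Between these libraries FPKM also depends on the scaling, since median-of-ratios factors were 1.104 to 1.201 in S100A4-negative and 0.8334 to 0.9048 in S100A4-positive libraries, and calls that another scaling changes are named.

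Lysosomes are the acidic compartments in which cells break down proteins, glycans and lipids taken up from outside or delivered from within. Soluble hydrolases are made in the secretory pathway, tagged with mannose-6-phosphate or bound by other carriers, and sent to the lysosome, whose membrane is lined by heavily glycosylated proteins such as LAMP1 and LAMP2. Phagocytes such as macrophages are rich in lysosomes, while in cytotoxic T cells related organelles store granzymes and perforin.

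Most of the 46 lysosomal genes were higher in S100A4-positive libraries: 37 rose, 1 fell and 8 did not pass the test (limma across all 13241 genes tested, adjusted p under 0.05). Of all genes tested, 62.3% were called, 19.0% higher and 43.4% lower. Proteases, lipid-handling proteins and membrane glycoproteins were among those with the largest changes, with Cd68 at 4.23, Ctsb at 3.68 and Psap at 3.43, as was lysozyme (Lyz2, 3.30), whereas the sulfatases and several glycosidases differed little. The median log2 fold change of the 46 genes (S100A4-positive minus S100A4-negative, log2(FPKM + 1) scale, which understates changes of low genes) was 1.65, against -0.36 for all genes tested, a difference of 2.01. In bulk samples a change in the number of cells that make a transcript cannot be told apart from a change in the RNA made per cell.

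**Figure D1:**
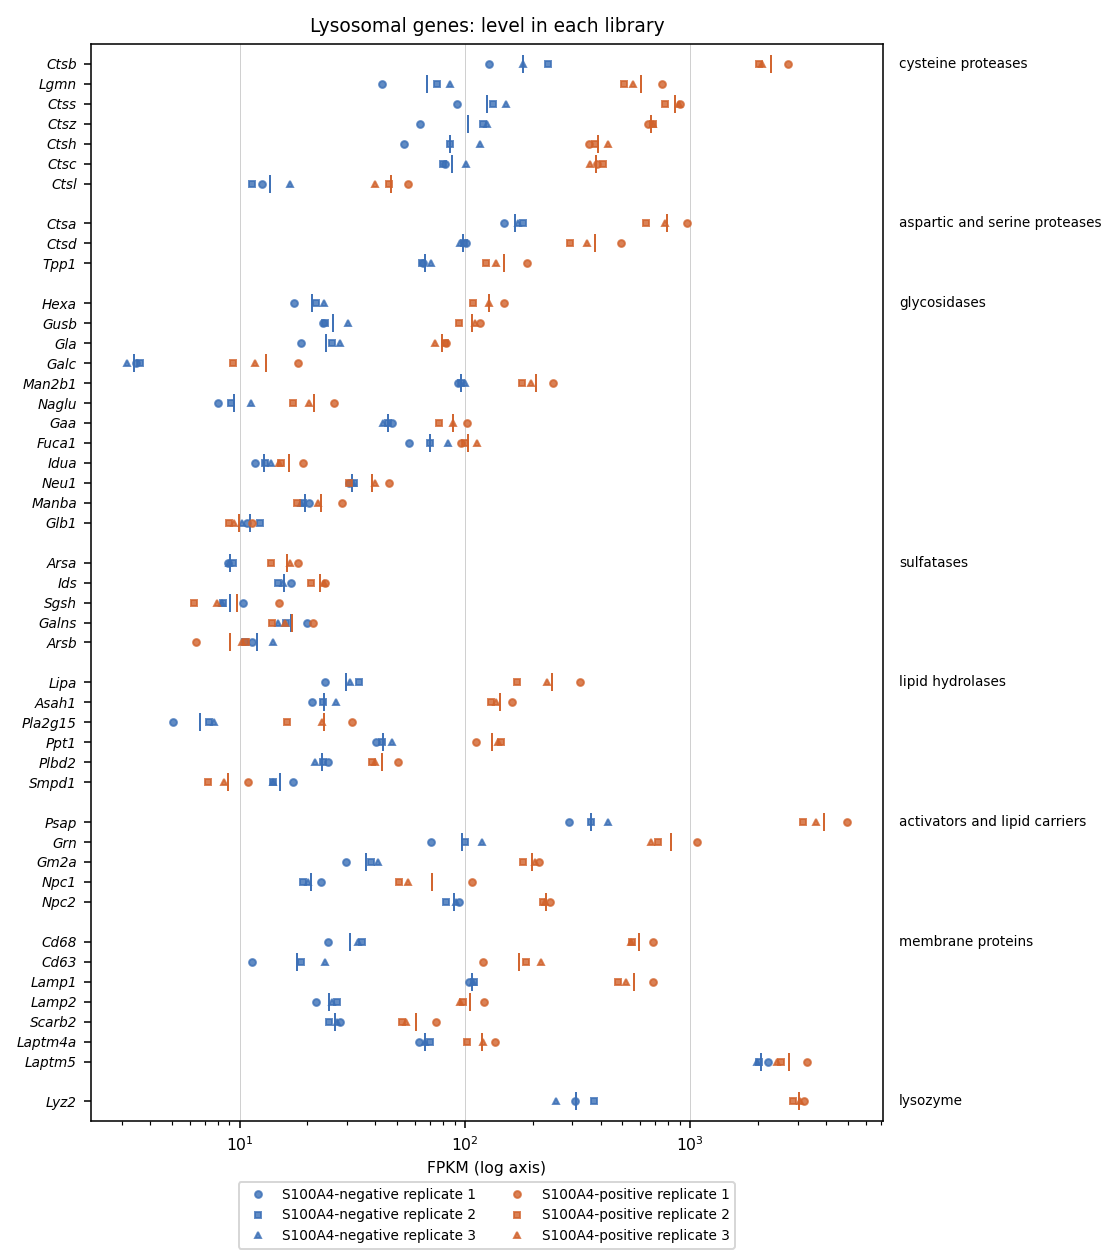
FPKM of the 46 lysosomal genes in each library (log axis), grouped by role; circles, squares and triangles are replicates 1, 2 and 3, and vertical ticks are group means. S100A4-positive libraries lie to the right for 39 genes without overlap, and the sulfatases sit close together. Of all tested genes, 20.9% were higher and 49.1% lower in S100A4-positive libraries without overlap.

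Together the 46 genes took 0.587%, 0.663% and 0.671% of recovered reads in S100A4-negative replicates 1 to 3, and 4.08%, 3.03% and 3.28% in the S100A4-positive replicates. Their share was 0.640% ± 0.0464 in the first group and 3.46% ± 0.548 in the second (SD, n = 3 each). In S100A4-negative libraries Laptm5, Psap and Lyz2 made up 56.8% of the summed FPKM of the 46 genes, and Laptm5 was the highest of them in each library. Psap was the highest in each S100A4-positive library and ranked 6 among all genes by mean FPKM there, compared with 292 in S100A4-negative libraries. The libraries held 14925260 to 18660188 recovered reads, and the lowest value of any of the 46 genes was 139 reads (Pla2g15, S100A4-negative replicate 1), so none was near the limit of detection.

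Whole marker lists also went against the labelled cell type in the S100A4-positive libraries, and no cell type was assigned from them. Markers of other cell types were also high in the S100A4-negative ones. All 18 T cell markers were detected in both groups and all fell, their summed FPKM going from 3649.2 to 4370.5 in S100A4-negative to 571.4 to 786.4 in S100A4-positive libraries. Of 23 monocyte and macrophage markers, none of them among the 46 genes, 21 rose, Ly6c2 did not pass and Cd163 was under the filter; their sum ranged from 407.9 to 578.2 in the S100A4-negative and from 5051.4 to 5635.5 in the S100A4-positive libraries. Csf1r was at 15.1, 33.8 and 19.0 FPKM in the S100A4-negative and 1270.7, 965.0 and 884.1 in the S100A4-positive replicates. Of 10 dendritic cell markers 7 rose and 3 did not pass, their sums going from 119.3 to 258.3 FPKM up to 497.2 to 708.0 in the S100A4-positive group. Of the markers tested, 8 of 10 for B cells, 6 of 7 for plasma cells, 11 of 13 for neutrophils and 5 of 5 for natural killer cells fell. For erythroid cells and platelets 1 of 4 fell, and 1 plasma cell and 1 neutrophil marker rose. These counts stand beside 43.4% of all tested genes called lower and 19.0% called higher, with a median log2 fold change of -0.36. In S100A4-negative libraries neutrophil markers summed to 3404.6 to 5053.7 FPKM, a range that reached above that of the T cell markers. Plasma cell markers summed to 1197.7 to 2669.9 FPKM there and B cell markers to 598.5 to 1752.8. In S100A4-positive libraries these 3 sums were 530.1 to 1952.6, 317.8 to 615.6 and 325.3 to 535.5 FPKM. No marker was listed at 0 in all libraries of a group. The part of these other cell types in the changes of the lysosomal genes was not tested.

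**Figure D2:**
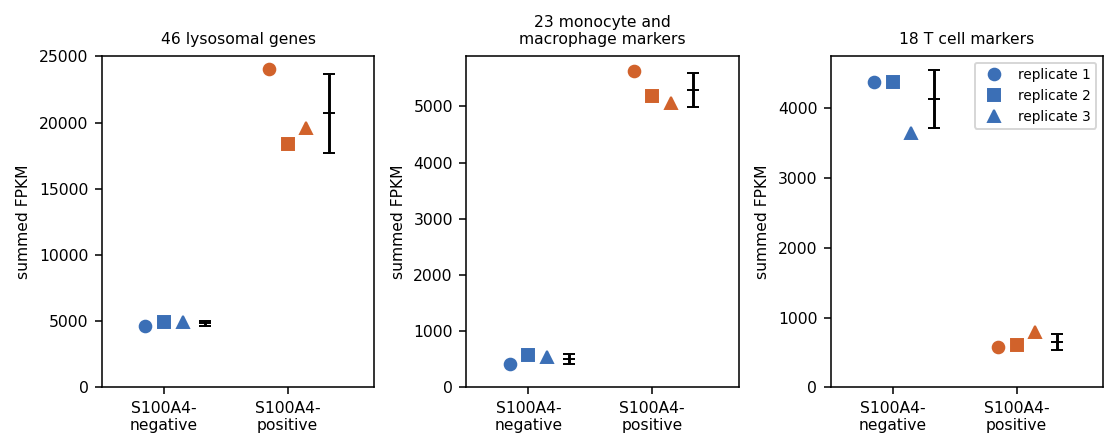
Summed FPKM in each library of the 46 lysosomal genes, of 23 monocyte and macrophage markers and of 18 T cell markers; symbols are replicates and black bars are mean ± SD (n = 3). The lysosomal and macrophage sums are higher, and the T cell sum lower, in each S100A4-positive library.

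The cysteine proteases, which cut proteins inside the lysosome, all rose (7 of 7, median log2 fold change 2.76). Ctsb, an endopeptidase, was at 127.5, 233.8 and 181.4 FPKM in S100A4-negative replicates 1 to 3 and at 2713.7, 2022.9 and 2086.3 in the S100A4-positive replicates, with the lowest S100A4-positive library far above the highest S100A4-negative one. It rose by 3.68 (SE 0.24, limma adjusted p = 4.51e-05) and went from rank 608 to rank 16 among all genes by mean FPKM (ENSMUSG00000021939, chromosome 14, 63122462 to 63145923, + strand of GRCm38). Lgmn, which encodes legumain, a protease that cuts after asparagine, was at 42.8, 75.0 and 86.2 FPKM in the S100A4-negative and 746.6, 507.4 and 559.6 in the S100A4-positive replicates. The groups did not overlap, and Lgmn rose by 3.17 (SE 0.27, limma adjusted p = 1.21e-04). Ctss, the cathepsin that trims the invariant chain of MHC class II, rose from 125.9 ± 30.6 to 855.0 ± 73.4 FPKM. The carboxypeptidase gene Ctsz rose from 102.8 ± 34.4 to 672.7 ± 19.3 FPKM, with a spread in S100A4-positive libraries of only 2.87% of the mean. Ctsh, an aminopeptidase, and Ctsc, the dipeptidyl peptidase that activates granzymes, rose by 2.23 and 2.13. Ctsl had the smallest change of the class, 1.73, and the lowest level, 47.2 ± 7.97 FPKM in S100A4-positive libraries.

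Among the serine and aspartic proteases 3 of 3 rose. Ctsa, a serine carboxypeptidase that also stabilises 2 glycosidases, was at 149.0, 181.3 and 172.2 FPKM in the S100A4-negative and 966.0, 637.2 and 770.3 in the S100A4-positive replicates, a rise of 2.22 (SE 0.18, limma adjusted p = 9.26e-05). Ctsd, the main aspartic protease of lysosomes, was at 101.2, 99.1 and 95.2 FPKM and then 494.2, 292.4 and 348.2, a rise of 1.90 (SE 0.19). The S100A4-negative values of Ctsd were close together, with an SD of 3.11% of the mean, and the S100A4-positive ones less so, at 27.5%. Tpp1, which removes tripeptides from protein ends, rose by 1.13 from 66.8 ± 3.31 to 149.4 ± 33.7 FPKM. Of the exon bases of Ctsd, 34.4% are shared with Gm49369 on the same strand, and 17.4% of those of Ctsa with genes on the opposite strand. As strand use in the counting is not stated, their values are uncertain to that extent, as are those of Arsb (39.9%), Ctsl (26.8%), Sgsh (21.6%), Arsa (18.8%), Ctsb (12.8%) and Hexa (12.8%).

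The promoters of Ctsa and Ctsd are printed because, of the 3 genes with the longest match found (Ctsa, Ctsd and Gla), they had the larger changes. The motif is the E-box bound by TFEB and its relatives, transcription factors known for driving lysosomal genes. Windows of 300 bases (250 before to 50 after the RefSeq start, GRCm38.p6) were found for 40 of the 46 genes, 43 windows in all. They were searched for CACGTG, for TCACGTGA and for TCACGTGA with a further G before and C after it, which are nested and read the same on both strands. Capitals mark TCACGTGA. The Ctsa window (chr2:164833523-164833822, + strand) is 1 of 2 for the gene. The other Ctsa window (chr2:164832622-164832921), which spans the annotated gene start, holds no match. The Ctsd window (chr7:142387778-142388077, - strand) is the single one of its gene, and each is printed 5′ to 3′ along the gene.
Ctsa: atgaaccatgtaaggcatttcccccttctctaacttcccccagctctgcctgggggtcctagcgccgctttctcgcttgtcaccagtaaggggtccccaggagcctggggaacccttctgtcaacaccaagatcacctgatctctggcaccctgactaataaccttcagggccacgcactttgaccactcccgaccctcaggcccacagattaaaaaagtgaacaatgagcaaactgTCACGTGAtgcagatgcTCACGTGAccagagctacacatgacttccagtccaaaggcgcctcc
Ctsd: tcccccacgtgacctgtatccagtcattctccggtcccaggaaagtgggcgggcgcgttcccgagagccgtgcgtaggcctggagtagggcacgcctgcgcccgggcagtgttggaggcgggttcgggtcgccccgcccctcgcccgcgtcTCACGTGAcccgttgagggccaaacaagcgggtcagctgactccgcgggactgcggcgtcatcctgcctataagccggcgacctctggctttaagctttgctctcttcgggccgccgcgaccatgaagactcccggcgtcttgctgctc
In Ctsa the 8 bases occur at -13 to -6 and again at 5 to 12, counted from the first transcribed base as 1, and in Ctsd at -99 to -92, with a further CACGTG at -245 to -240. TCACGTGA was in 3 of the 43 windows (Ctsa, Ctsd and Gla; 6.98%), against 0.974% of all 32851 windows and 1.88% of the 11914 windows of tested genes. CACGTG was in 11 (25.6%), against 7.15% and 10.1%, and the 10-base form in 0, against 0.326% and 0.713%. Genes with a CACGTG in a window had a median log2 fold change of 1.69 (11 genes, from -0.15 to 3.17) and those without one of 1.62 (29 genes, from -0.71 to 4.23). Asah1, Ctsb, Ctsh, Galns, Npc1 and Plbd2 had no window and enter neither number. The matches are letters only.

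Glycosidases, which take sugars off glycoproteins, glycolipids and glycosaminoglycans, were divided: 8 of 12 rose, 0 fell and 4 did not pass (median 1.01; 0 also at an unadjusted p under 0.05). Hexa, the alpha subunit of beta-hexosaminidase, which degrades GM2 ganglioside, was at 17.5, 21.8 and 23.6 FPKM in the S100A4-negative and 149.1, 108.3 and 127.3 in the S100A4-positive replicates, a rise of 2.55 (SE 0.16, limma adjusted p = 4.20e-05). Gusb, beta-glucuronidase, was at 23.5, 24.0 and 30.2 and then 117.0, 93.9 and 110.8 FPKM, a rise of 2.01 (SE 0.14). For both genes the groups were well apart. The class member with the highest level, the alpha-mannosidase gene Man2b1, was at 92.7, 96.5 and 100.1 FPKM in the S100A4-negative and 245.6, 180.0 and 196.2 in the S100A4-positive replicates and rose by 1.08 (SE 0.14). Gla and Galc, which remove galactose from glycolipids, rose by 1.69 and 1.62, Galc from a low 3.41 ± 0.241 to 13.1 ± 4.60 FPKM. Naglu, which acts on heparan sulfate, Gaa, which breaks down glycogen, and the fucosidase gene Fuca1 rose by 1.08, 0.95 and 0.57. Fuca1 did not pass without S100A4-positive replicate 3 (limma adjusted p = 0.0638; range over all alternatives 0.00144 to 0.0638). The glycosidase genes that did not pass were Idua, Neu1, Manba and Glb1, with log2 fold changes of 0.33, 0.27, 0.20 and -0.15. The first 3 were called higher after median-of-ratios rescaling (0.69, 0.64 and 0.56), which moved the median of all tested genes from -0.36 to -0.03. It called 27.3% of tested genes higher and 24.8% lower. Idua, Neu1 and Manba were also called higher after quantile normalization and with voom and the authors' size factors, which were inferred from the deposited group means. Those 2 settings called 22.9% and 28.1% of tested genes higher and 31.6% and 23.8% lower. Neu1 was called without S100A4-positive replicate 2 too (0.43). Glb1 was positive after median-of-ratios rescaling (0.20) and not called.

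CTSA, the beta-galactosidase GLB1 and the sialidase NEU1 are known to form a complex, and their transcripts changed unequally. Glb1 was at 10.8, 12.3 and 10.2 FPKM in the S100A4-negative and 11.4, 8.94 and 9.48 in the S100A4-positive replicates, so the groups overlapped. Neu1 was at 30.6, 32.3 and 31.8 and then 46.2, 30.5 and 39.8 FPKM, also with overlap. The ratio of Ctsa to Glb1, which scaling of a library does not affect, was 13.7, 14.8 and 17.0 in S100A4-negative and 84.5, 71.3 and 81.2 in S100A4-positive replicates. That of Ctsa to Neu1 was 5.30 ± 0.384 and 20.4 ± 0.907 (SD, n = 3 each). These ratios were chosen after the values were seen and were not tested.

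Sulfatases, which remove sulfate from glycosaminoglycans and sulfatides, changed least as a class: 2 of 5 rose, 0 fell and 3 did not pass (median 0.02; 0 also at an unadjusted p under 0.05). Arsa, which acts on sulfatides, was at 8.88, 9.33 and 8.94 FPKM in the S100A4-negative and 18.1, 13.8 and 16.8 in the S100A4-positive replicates, a rise of 0.77 (SE 0.14, limma adjusted p = 0.00259). Ids, which acts on heparan and dermatan sulfate, was at 16.9, 14.8 and 15.6 and then 24.0, 20.8 and 23.7 FPKM, a rise of 0.50 (SE 0.12, limma adjusted p = 0.00896). In both the groups were apart but near each other. Sgsh, Galns and Arsb were at 9.03 ± 1.14, 16.9 ± 2.67 and 12.0 ± 1.80 FPKM in the S100A4-negative and 9.72 ± 4.57, 17.0 ± 3.74 and 9.06 ± 2.35 in the S100A4-positive libraries. The 95% confidence intervals of their log2 fold changes, -0.64 to 0.68, -0.44 to 0.43 and -0.88 to 0.10, leave room for changes of either sign. Sgsh varied most of the 46 genes in S100A4-positive libraries, from 6.29 to 14.9 FPKM.

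Of the 6 genes for lipid hydrolases 5 rose and 1 fell (median 1.61). Lipa, the acid lipase that frees cholesterol and fatty acids from esters, was at 24.0, 33.9 and 30.9 FPKM in the S100A4-negative and 325.1, 169.5 and 231.9 in the S100A4-positive replicates, a rise of 2.95 (SE 0.24, limma adjusted p = 1.03e-04). Asah1, acid ceramidase, was at 21.0, 23.5 and 26.9 and then 161.5, 130.0 and 136.9 FPKM, a rise of 2.53 (SE 0.14). Lipa was the more variable of the pair among S100A4-positive libraries, with an SD of 32.3% of the mean against 11.6%. Pla2g15, a phospholipase, rose by 1.65, Ppt1, which removes palmitate from proteins, by 1.58, and Plbd2 by 0.86. Smpd1, acid sphingomyelinase, which makes the ceramide that acid ceramidase degrades, was the single gene of the 46 that fell (ENSMUSG00000037049, chromosome 7, 105554360 to 105558389, + strand). Its FPKM was 17.2, 14.0 and 14.0 in the S100A4-negative and 10.9, 7.27 and 8.56 in the S100A4-positive replicates, with no overlap. Its change of -0.71 on the log2 scale (SE 0.17; adjusted p = 0.00993, limma) is to be read beside the median of all tested genes of -0.36. It was not called after median-of-ratios rescaling (-0.36, limma adjusted p = 0.105, with a range over all alternatives of 0.00318 to 0.118). Nor was it called after quantile normalization or with voom and the authors' size factors. The ratio of Asah1 to Smpd1 was 1.61 ± 0.357 in the S100A4-negative group and 16.2 ± 1.57 in the S100A4-positive group (SD, n = 3 each), chosen after the values were seen and not tested.

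**Figure D3:**
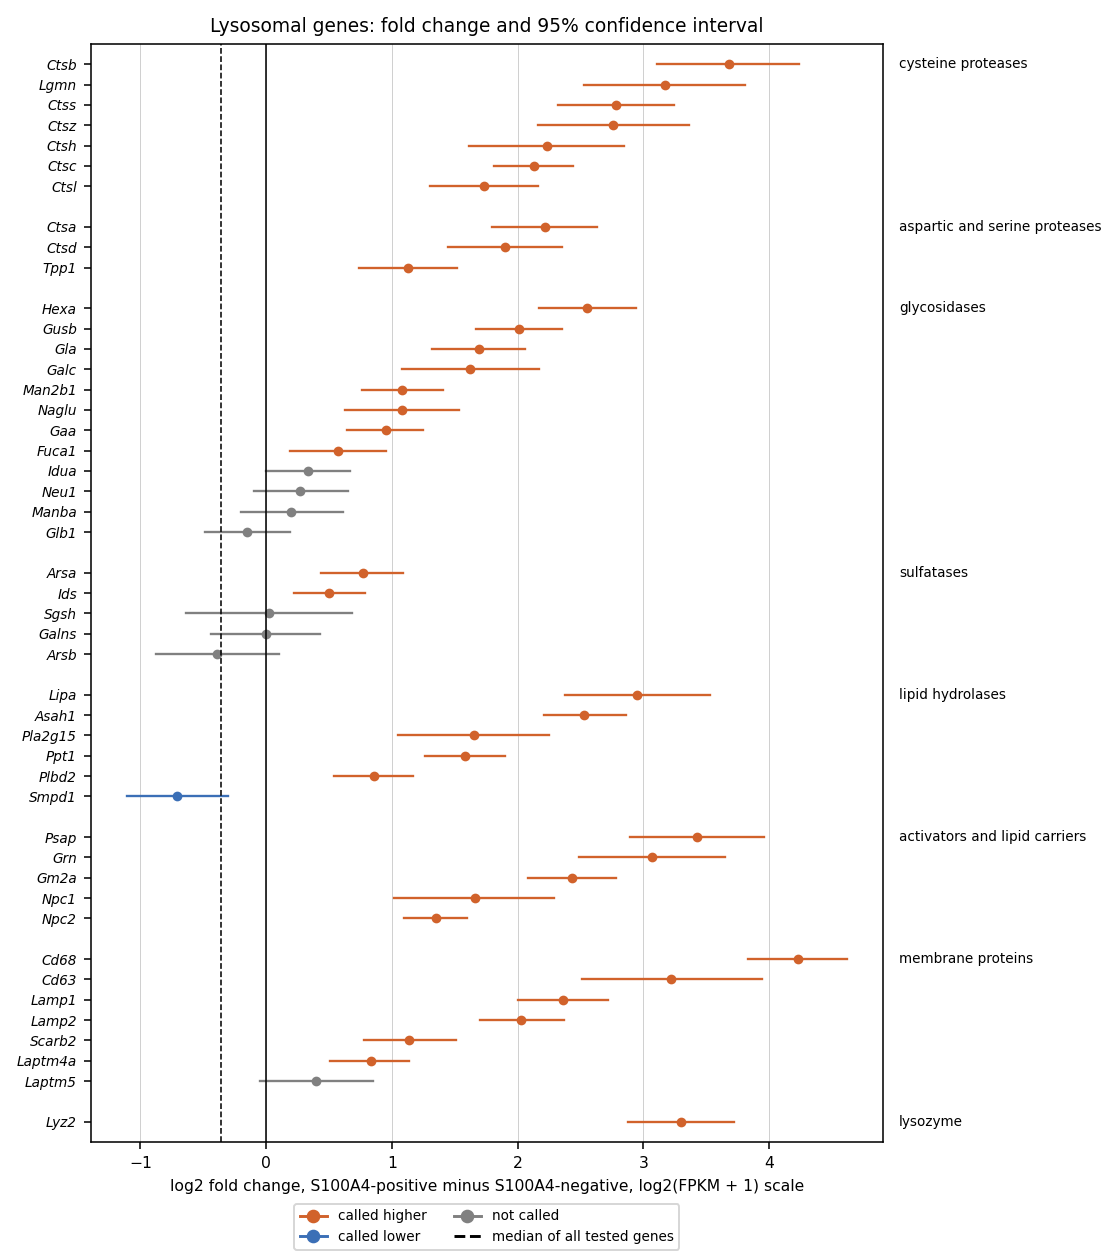
Log2 fold change of each of the 46 lysosomal genes (points) with its 95% confidence interval from limma (lines), grouped by role; colours give the call, the solid line is 0 and the dashed line the median of all tested genes, -0.36. Cysteine proteases and activators lie to the right of 1, sulfatases around 0, and Smpd1 is the single gene called lower.

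Activators and lipid carriers all rose (5 of 5, median 2.43). Psap, whose product is cut into the saposins that present sphingolipids to their hydrolases, was at 290.9, 364.4 and 429.9 FPKM in the S100A4-negative and 4963.1, 3179.0 and 3621.7 in the S100A4-positive replicates (ENSMUSG00000004207, chromosome 10, 60277627 to 60302597, + strand). It rose by 3.43 (SE 0.23, limma adjusted p = 4.67e-05). Its reads per library numbered 13018 to 21147 in the former group and 125072 to 221673 in the latter. Grn, which encodes progranulin, a lysosomal and secreted protein that binds prosaposin, was at 70.4, 99.6 and 119.6 FPKM and then 1072.8, 715.8 and 668.6, a rise of 3.07 (SE 0.25). Both genes were highest in S100A4-positive replicate 1 and in S100A4-negative replicate 3. Gm2a, the activator that hands GM2 ganglioside to beta-hexosaminidase, rose by 2.43, close to the 2.55 of Hexa. Npc2, which passes cholesterol to NPC1 in the membrane, rose by 1.35, from 89.2 ± 5.93 to 228.5 ± 8.62 FPKM. Npc1 rose by 1.66 and was uneven, at 107.4 FPKM in S100A4-positive replicate 1 and 51.0 and 55.6 in replicates 2 and 3; without replicate 1 its change was 1.32, still called.

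Of the membrane proteins 6 of 7 rose and 1 did not pass (median 2.03). Cd68, a glycoprotein of the LAMP family that marks macrophages, had the largest change of the 46 genes (ENSMUSG00000018774, chromosome 11, 69664213 to 69666153, - strand). It was at 24.6, 34.8 and 33.5 FPKM in the S100A4-negative and 681.7, 552.9 and 545.6 in the S100A4-positive replicates, a rise of 4.23 (SE 0.17, limma adjusted p = 8.72e-06). Cd63, a tetraspanin of late endosomes and secretory lysosomes, was at 11.3, 18.7 and 23.9 and then 119.9, 186.3 and 216.8 FPKM, a rise of 3.22 (SE 0.30). Unlike most of the 46 genes, Cd63 was lowest in S100A4-positive replicate 1. Lamp1 and Lamp2, the main glycoproteins lining the membrane, rose by 2.36 and 2.03, from 107.3 ± 2.97 to 561.7 ± 109.8 and from 24.9 ± 2.75 to 105.0 ± 14.8 FPKM. Lamp1 was 4.34 ± 0.380 times as high as Lamp2 in the S100A4-negative and 5.33 ± 0.382 times in the S100A4-positive libraries. Scarb2, which carries glucocerebrosidase to the lysosome, and Laptm4a, a widely expressed transporter-like protein, rose by 1.14 and 0.83.

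Laptm5, a lysosomal protein of blood cells that lowers antigen receptor levels on lymphocytes, was abundant in both groups. It was at 2209.8, 2025.5 and 1970.9 FPKM in the S100A4-negative and 3287.6, 2540.8 and 2427.7 in the S100A4-positive replicates. The groups did not overlap, but the log2 fold change of 0.40 (SE 0.19) did not pass (limma adjusted p = 0.104; range over all alternatives 0.00433 to 0.305). It was called after median-of-ratios rescaling (0.78) and with voom on recovered reads (0.40 with library totals, 0.79 with the authors' size factors). With those size factors voom called 28.1% of tested genes higher and 23.8% lower. Lyz2, lysozyme of myeloid cells, was at 308.1, 374.0 and 252.4 FPKM in the S100A4-negative and 3188.6, 2855.9 and 3072.2 in the S100A4-positive replicates, a rise of 3.30 (SE 0.18, limma adjusted p = 2.26e-05). It ranked 356 and 9 among all genes by mean FPKM in the respective groups. Lyz2 has a near copy, Lyz1, so its reads may have been divided between them in counting.

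**Figure D4:**
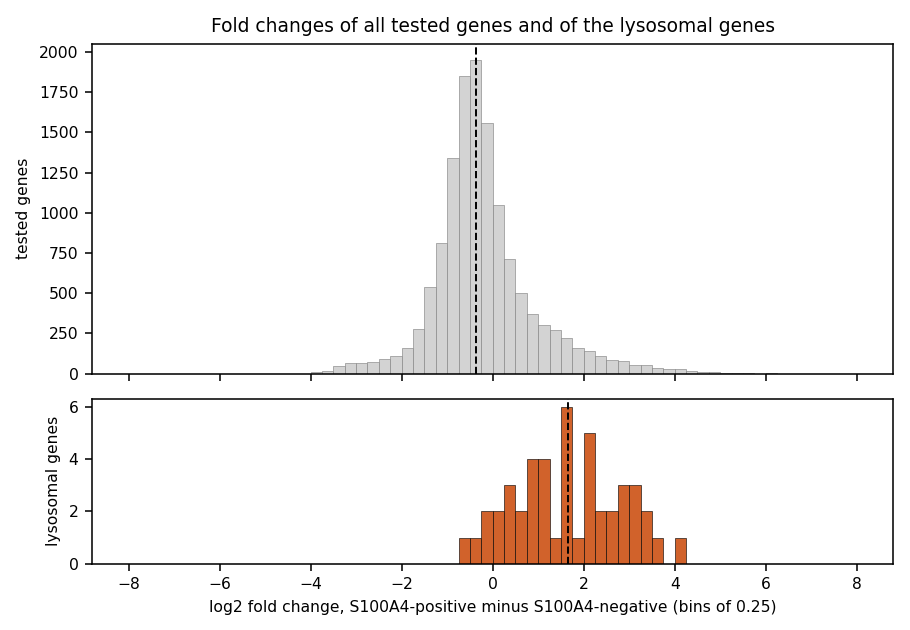
Number of tested genes (top) and of lysosomal genes (bottom) by log2 fold change in bins of 0.25; dashed lines are the medians, -0.36 and 1.65. Lysosomal genes spread from -0.71 to 4.23, mostly right of the main peak of all genes.

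Across the 46 genes, 31 had a log2 fold change of at least 1, 19 of at least 2 and 7 of at least 3, against 12.4%, 5.14% and 2.0% of all genes tested. All 3 S100A4-positive libraries lay above all 3 S100A4-negative ones for 39 genes and below for 1, where 20.9% and 49.1% of tested genes did so. Of the 46 genes, the authors' deposited table called 39 higher and 0 lower, with 11.6% and 7.35% of its 28627 genes with a p-value called in those directions. The 37 genes called higher here are among those 39, the others being Idua and Laptm5, and the authors' deposited table gives Smpd1 a log2 fold change of -0.37 with an adjusted p of 0.556.

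Within the S100A4-positive group, replicate 1 was the highest library for 39 of the 46 genes (84.8%; 43.2% of tested genes) and replicate 2 the lowest for 32 (69.6%; 46.1%). Replicate 1 also had the highest macrophage marker sum, 5635.5 FPKM against 5182.6 and 5051.4, and the highest neutrophil marker sum, 1952.6 against 659.0 and 530.1. Its dendritic cell marker sum was the lowest of the group, 497.2 FPKM against 556.9 and 708.0. The macrophage marker sum was lowest in replicate 3, whereas most of the 46 genes were lowest in replicate 2. The genes not highest in replicate 1 were Ctsz, Ctsh, Ctsc, Fuca1, Arsb, Ppt1 and Cd63. Without this library 37 genes rose and 1 fell, with a median of 1.51. Within the S100A4-negative group, replicate 1 was the lowest library for 27 genes (58.7%, with 40.6% of tested genes). It also had the lowest macrophage marker sum, 407.9 FPKM against 578.2 and 540.1. Replicate 3 was the highest library for 22 genes (47.8%, with 44.8% of tested genes), whereas that sum was highest in replicate 2. The part of those cell types in this order was not tested. The median spread of the 46 genes was 12.5% of the mean in the S100A4-negative and 16.6% in the S100A4-positive libraries, near the 14.0% and 16.8% of all tested genes.

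Other lysosomal genes, from lists that hold none of the 46, moved less uniformly. The shares over all tested genes were 19.0% called higher and 43.4% lower. Of 27 further hydrolases tested, 18 rose, 3 fell and 6 did not pass (median 1.29). The 3 that fell were the cathepsin genes Ctso, Ctsf and Ctse (-0.67, -0.78 and -1.15), each without overlap of the groups. These 3 were named after their values were seen and were not followed under other scalings. Their changes are to be read beside the median of all tested genes of -0.36. Acp2, an acid phosphatase, rose from 7.16 ± 0.541 to 71.7 ± 15.1 FPKM (3.14), and Plbd1 and Pld4, a phospholipase-like protein and an exonuclease, by 2.82 and 2.52. Of 21 further membrane proteins and transporters, 11 rose, 4 fell and 6 did not pass (median 0.55). Slc11a1, the metal transporter of phagosomes also called NRAMP1, rose from 27.6 ± 12.3 to 493.4 ± 69.0 FPKM (4.19), the peptide transporter gene Slc15a3 by 3.71 and Laptm4b by 2.44. Macrophage and dendritic cell marker sums, given above, also rose, and their part in the changes of these lists was not tested.

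The machinery that delivers hydrolases changed less: of 22 genes 9 rose, 2 fell and 11 did not pass (median 0.32). Over all tested genes 19.0% were called higher and 43.4% lower. Sort1, which encodes sortilin, a carrier of prosaposin, rose by 2.21, Sumf1, which activates all sulfatases, by 1.43, and M6pr, the cation-dependent mannose-6-phosphate receptor, by 1.40. The 2 that fell were Gnptab and Gnptg (-0.76 and -0.73), subunits of the enzyme that starts the mannose-6-phosphate tag. They were close to the change of Smpd1 and named after their values were seen. Their changes are to be read beside the median of all tested genes of -0.36. After median-of-ratios rescaling Gnptab was not called (-0.39, limma adjusted p = 0.128; range over all alternatives 0.00234 to 0.13), and Gnptg was (-0.38, adjusted p = 0.0259 with limma; range 0.000556 to 0.0287). Among 8 cathepsin inhibitors tested, 3 rose, 1 fell and 4 did not pass (median 0.40). Cst3, cystatin C, rose from 145.5 ± 54.0 to 1803.1 ± 595.5 FPKM (3.63, SE 0.35, limma adjusted p = 1.95e-04) and Cstb by 2.85. Cst7, cystatin F, an inhibitor of the granzyme-activating Ctsc in cytotoxic lymphocytes, fell by 1.5, from 43.5 ± 5.64 to 15.4 ± 6.44 FPKM.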

How the data were processed

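Polyadenylated RNA of 6 sorted samples was sequenced, 3 per group. The authors deposited FPKM for 55951 genes and a comparison table with mean normalized read counts per group (a signal), a log2 fold change, a p-value and an adjusted p-value; no test is named per the file headers. HISAT2 2.1.0, Cufflinks and Cuffnorm and mm10 are listed per the submitters' processing notes, without their roles. Columns were matched to samples by title, and 0 value columns were left over.

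Genes averaging 1 FPKM or more over the libraries (13241; 42710 left out) were tested with limma 3.58.1 (R 4.3.3) on log2(FPKM + 1), with trended prior variance and Benjamini-Hochberg adjustment over all of them; adjusted p under 0.05 was called. Reads were recovered from FPKM and the authors' group means: 100% of 135018 values above 0 lay within 0.02 of a whole read. They gave depth and a voom alternative. What is called the authors' size factors was inferred in the same step from FPKM and those group means. Coordinates and exon overlaps come from GENCODE M21 (GRCm38, the build mm10 names), promoters from RefSeq. Tables were made with Python 3.11.15 and pandas 2.3.3. The fit was tested on simulated data in which few genes changed, with random sign. That simulation does not cover data in which most genes are called and scaling alters calls.

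The members and lists were chosen with earlier results of these data known. Given in full, per role class, are the gene with the highest mean FPKM, the 2 with the largest called change and any called against its class; of each further list, up to 3 called genes with the largest change. Some genes were described more fully after their values were seen. Alternatives were another pseudocount (0.1), no filter or a filter of 5 FPKM, median-of-ratios and quantile scaling, no trend, array weights, voom, the replicate number as a block, and leaving out each library.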

Additional observations from a re-analysis of the deposited data

How the results depend on the processing

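Under 16 alternatives 36 to 41 of the 46 genes were called higher, against 37. The count lower was 1, or 0 after median-of-ratios rescaling, quantile normalization or voom with the authors' size factors (limma; at an unadjusted p under 0.05 it was 0, 1 and 0). The median log2 fold change moved to 2.01, 1.86 and 2.15 under these 3, and leaving out each library gave 1.51 to 1.78. These scalings set the split of all calls: 30.4% were higher as deposited, 52.4%, 42.0% and 54.1% under them. Relative to all tested genes the median of the 46 genes stayed between 1.71 and 2.17. Of the values of single genes under an alternative, 705 kept their direction and side of the threshold, 13 gained a call and 4 lost one; 14 changed sign, all of Glb1, Galns and Sgsh, which were never called. Glb1 was at 0.20, 0.14 and 0.23 under those scalings in turn and Galns at 0.35, 0.26 and 0.39; Galns was at 0.0025 with voom and library totals, and Sgsh at -0.08 with array weights. Without single libraries Galns ranged from -0.16 to 0.12 and Sgsh from -0.31 to 0.26. The cause of these differences was not tested. For 18 named genes outside the 46, the same alternatives were added after seeing the data: 286 values kept direction and call, and 2 lost the call, both of Gnptab (-0.39 after median-of-ratios rescaling and -0.39 with voom and the authors' size factors). With the replicate number as a block, 8857 genes were called against 8253, and the 46 genes kept 37 higher and 1 lower. Deviations of samples with the same number correlated at 0.376, 0.083 and 0.366, and those with different numbers at -0.379 to 0.146. S100A4-positive replicate 2 correlated best with S100A4-negative replicate 3 (0.146). These values do not settle whether equal numbers mark pairs, and the main fit did not use them as pairs. Depth did not limit these genes; 3 libraries per group limit what small changes can be seen.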
